A study of Mus musculus with 12 samples.

Results

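Voltage-gated sodium and calcium channels were described through the 34 subunit genes that the array measured with a probe of their own, out of 18820 genes with such a probe. Members were the genes whose annotated symbol began with Cacna, Cacnb or Cacng, or with Scn and a digit, where the platform annotation gave that symbol alone, and the probe with the highest mean level stood for each gene. The 34 genes comprised 17 pore-forming and 17 auxiliary subunits, or 11 sodium and 23 calcium channel genes. Cacna1d was listed only together with another gene and was not a member, and Cacnb2, Cacnb3 and Scn4a were not analysed here. The tissue was the nucleus accumbens of C57BL/6N mice at 12 weeks of age, core and shell together, after behavioural testing. In the first group, 6 offspring came from dams given poly(I:C), an artificial RNA duplex that sets off antiviral immune responses, intravenously at 5 mg/kg on gestation day 17, and in the second, 6 offspring came from dams given saline intravenously. Each offspring gave 1 Affymetrix Mouse Gene 1.1 ST array, and values are RMA expression values on the log2 scale, deposited by the authors. The labels name no litter, sex or array batch, and litter mates may therefore have been counted as independent animals.

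Voltage-gated sodium channels open on depolarisation and carry the upstroke of the action potential, and voltage-gated calcium channels convert depolarisation into calcium entry that drives transmitter release, dendritic signalling and gene expression. In both families a single large pore-forming protein senses voltage and conducts the ion, while auxiliary subunits set its surface level, gating and position in the cell. Sodium channel β subunits are single-pass membrane proteins with an immunoglobulin-like domain. Calcium channel β subunits are cytoplasmic, α2δ subunits are extracellular and anchored in the membrane, and several proteins named as calcium channel γ subunits act chiefly as transmembrane AMPA receptor regulatory proteins (TARPs), which bring glutamate receptors to the synapse. Medium spiny neurons, the main neurons of the accumbens, are quiet at rest and fire when such inputs push them past the sodium channel threshold.

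The array values carried the signature of striatal tissue, and markers of other cells and tissues varied in level between arrays. Whether this variation came from dissection or from expression was not tested. All 9 measured shared medium spiny neuron markers lay above the median level of tested probes (5.47), and their mean was 9.20 to 9.58 in poly(I:C) offspring and 9.07 to 9.55 in control offspring. Markers of cortical glutamatergic neurons averaged 6.05 to 7.00 in poly(I:C) offspring and 5.60 to 6.85 in controls, and 8 of 8 were higher in value in poly(I:C) offspring (0 past the adjusted threshold in limma, 5 at an unadjusted p under 0.05). Choroid plexus and ependymal markers averaged 4.67 to 4.86 in poly(I:C) offspring and 4.79 to 6.33 in controls, with 11 of 11 lower in value (0 past the adjusted threshold, 4 at an unadjusted p under 0.05) and the highest levels in controls 4 and 6. Myelin markers averaged 7.79 to 7.98 in poly(I:C) offspring and 7.94 to 8.51 in controls, with 10 of 10 lower in value (1 past the adjusted threshold, 9 at an unadjusted p under 0.05). Septal, pallidal and diencephalic markers averaged 5.34 to 5.97 in poly(I:C) offspring and 5.43 to 6.25 in controls, with 2 of 8 higher and 6 lower in value (0 past the adjusted threshold, 4 at an unadjusted p under 0.05). Skeletal muscle markers averaged 4.46 to 4.52 in poly(I:C) offspring and 4.48 to 4.57 in controls, with 1 of 5 above the median level of tested probes. Array medians ran from 4.78 to 4.85, and correlations between arrays ran from 0.991 to 0.997.

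The comparison of poly(I:C) with control offspring asked which channel subunits differed in the adult accumbens after prenatal immune activation. Among the channel genes, 0 of 34 passed the threshold of an adjusted p under 0.05 (limma, adjusted over 21218 probes), where 0.0613% of all tested probes did. An unadjusted p under 0.05 was reached by 8 of 34 genes (23.5%), against 14.4% of all tested probes. Those higher in poly(I:C) offspring were 7 genes, against 7.83% of all probes, and 1 was lower, against 6.57% of all probes. The 7 were the sodium pore genes Scn1a and Scn8a, the sodium β gene Scn3b, the calcium channel genes Cacna2d1 and Cacnb4, and the TARP genes Cacng7 and Cacng8, and the lower one was the TARP gene Cacng4. By part, 2 of 17 pore genes (11.8%) and 6 of 17 auxiliary genes (35.3%) had that p, against 14.4% of all tested probes. The parts also differed in level, with 11 pore and 14 auxiliary genes above the median level of tested probes. The difference between parts was not tested. Group ranges were apart for 0 of 34 genes and for 1.13% of all tested probes, and at so low a share 0 of 34 is no contrast. The difference was above 0 in 20 of 34 genes, against 50.9% of all probes. Over the 34 genes the median log2 difference was 0.03, against 0.0016 over all tested probes. The 25 genes above the median level held all 8, a share of 32%, where 19.5% of all genes above that level had an unadjusted p under 0.05. Of the same 25, 7 were higher at that p, against 12.7% of all genes above that level. Adjusted p-values of the 8 ran upward from 0.153, so each difference below is a value with its interval and not a call.

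**Figure D1:**
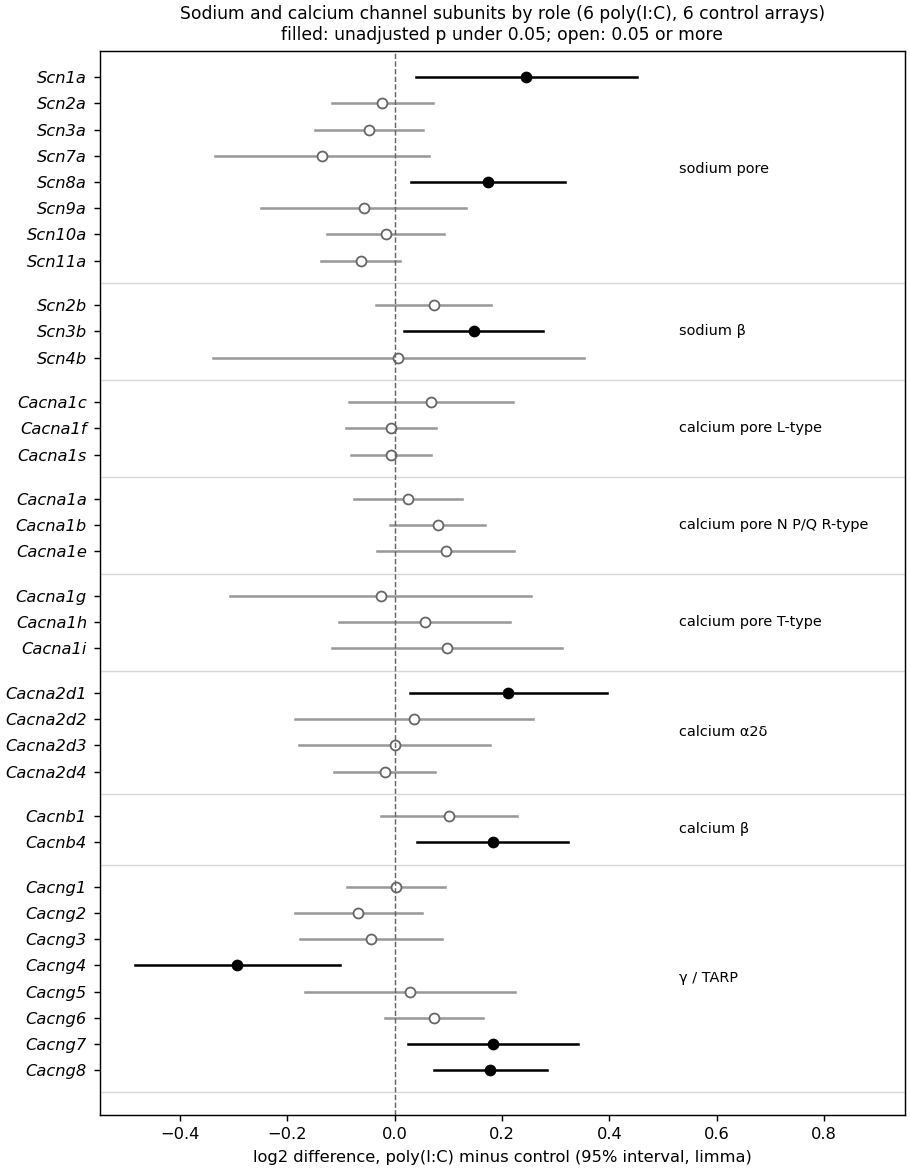
Log2 difference (x axis, poly(I:C) minus control, with the 95% interval of the limma fit) of each of the 34 channel subunit genes, grouped by role down the page, with filled points for an unadjusted p under 0.05. The filled points lie to the right of 0 in 7 genes and to the left in Cacng4.

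Start-site sequence is shown for 3 of these 8 genes, chosen because Cacng8 and Cacng7 are neighbours on chromosome 7 that were both higher in value, and because Cacna2d1 was higher on both of its probes. Each window holds 250 bases before to 50 bases after the start that the RefSeq promoter table gives in GRCm38.p6, 5′ to 3′, and capitals mark matches to the GC box GGGCGG on either strand.
Cacng8, chr7:3393792-3394091, plus strand: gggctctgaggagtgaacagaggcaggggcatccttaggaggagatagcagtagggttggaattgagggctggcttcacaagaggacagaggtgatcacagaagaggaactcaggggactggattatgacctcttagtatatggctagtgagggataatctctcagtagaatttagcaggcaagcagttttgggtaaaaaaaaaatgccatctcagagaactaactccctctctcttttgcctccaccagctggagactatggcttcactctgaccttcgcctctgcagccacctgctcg
Cacng7, chr7:3332575-3332874, plus strand: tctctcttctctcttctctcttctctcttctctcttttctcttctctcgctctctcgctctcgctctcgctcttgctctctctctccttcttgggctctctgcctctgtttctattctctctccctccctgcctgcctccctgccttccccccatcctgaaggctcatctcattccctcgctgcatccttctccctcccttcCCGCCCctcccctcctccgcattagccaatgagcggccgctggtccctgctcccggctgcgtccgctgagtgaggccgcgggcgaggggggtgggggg
Cacna2d1, chr5:15934441-15934740, plus strand: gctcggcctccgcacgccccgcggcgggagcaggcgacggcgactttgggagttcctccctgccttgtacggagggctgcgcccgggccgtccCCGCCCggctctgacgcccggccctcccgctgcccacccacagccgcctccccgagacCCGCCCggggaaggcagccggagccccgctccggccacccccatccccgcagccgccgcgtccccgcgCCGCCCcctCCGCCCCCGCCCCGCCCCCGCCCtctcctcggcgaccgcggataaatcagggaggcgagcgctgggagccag
The Cacng8 window held 0 GC boxes and 2 CpG dinucleotides, the Cacng7 window 1 and 15, and the Cacna2d1 window 7, some overlapping, and 42. The starts used for Cacng7 and Cacna2d1 lie downstream of the first annotated base of the gene, so these windows begin inside the annotated genes. GC content was 50%, 62% and 80% in the same order, so the windows of the neighbouring TARP genes were not alike in base composition. Whether the listed starts, that of Cacng8 included, are those used in this tissue was not tested. RefSeq windows were matched for 26 of the 34 genes, with 34 windows in all, and for 6 of the 8 genes. A GC box occurred in 12 of the 34 windows (35.3%) and in 35.7% of 32851 windows of all genes. The TATA box TATAAA occurred on either strand in 1 of the 34 (2.94%) and in 13.6% of all windows. The cAMP response element TGACGTCA, a palindrome, occurred in 0 of the 34 and in 1.79% of all windows. A match is a description of these letters only.

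Among the 8 sodium channel pore genes, Scn1a and Scn8a were higher in value in poly(I:C) offspring, and the other 6 had log2 differences from -0.14 to -0.02. Scn1a encodes the pore that supports fast firing of inhibitory interneurons. Its lowest, median and highest values were 7.57, 7.75 and 7.90 in poly(I:C) offspring, against 7.06, 7.57 and 7.70 in controls. The poly(I:C) arrays were above every control array in 3 of 6 cases, and control 4 stood lowest. The log2 difference was 0.25 (95% interval 0.04 to 0.45, unadjusted p = 0.0232, limma adjusted p = 0.274), and without control 4 it was 0.15. Scn8a encodes the main sodium channel of the distal axon initial segment and nodes of Ranvier. It had 8.26, 8.40 and 8.54 in poly(I:C) offspring, against 8.06, 8.24 and 8.40 in controls. Here 3 poly(I:C) arrays exceeded all controls, with a log2 difference of 0.17 (limma adjusted p = 0.268, 95% interval 0.03 to 0.32), which an exact permutation test over the 924 splits of the arrays gave a two-sided p of 0.0498.

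Scn2a, the sodium channel of the proximal initial segment and of unmyelinated axons, did not share the direction of Scn1a and Scn8a on its main probe. Its values there were 10.49 to 10.68 in poly(I:C) offspring and 10.55 to 10.72 in controls, a log2 difference of -0.02 (95% interval -0.12 to 0.07). The gene had 14 probes, of which poly(I:C) offspring were higher on 9 and lower on 5. Their differences ran from -0.06 to 0.17, with 0 at an unadjusted p under 0.05 (the lowest was 0.0530). The mean over the 14 probes gave a log2 difference of 0.04. Scn3a, an embryonic sodium channel that declines after birth, stood at -0.05. Scn9a, Scn10a and Scn11a, the pores of peripheral sensory neurons, were at -0.06, -0.02 and -0.06, and Scn7a, a sodium sensor of glia, was at -0.14. These 4 lay below the median level of tested probes. For Scn11a, at a mean level of 4.35, 5 poly(I:C) arrays lay below every control (exact permutation p = 0.0433, limma unadjusted p = 0.0861, limma adjusted p = 0.421). Scn1a, Scn2a, Scn3a, Scn7a and Scn9a lie near each other on chromosome 2, with 503333 bases between Scn2a and Scn1a. Scn1a alone among these genes had an unadjusted p under 0.05.

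**Figure D2:**
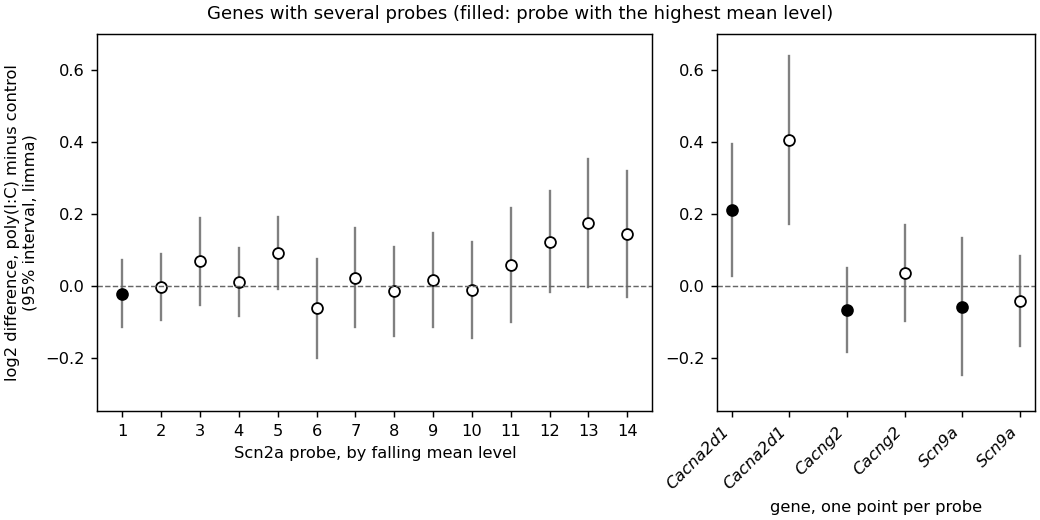
Log2 difference (y axis, poly(I:C) minus control, with the 95% interval of the limma fit) of every probe of the 4 genes with several, with the probe of highest mean level filled. The 14 Scn2a probes lie between -0.06 and 0.17, and both Cacna2d1 probes lie above 0.

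The 3 measured sodium channel β genes were all at or above 0 in value, and 1 had an unadjusted p under 0.05. Scn3b, which encodes a β subunit bound to the pore without a covalent link, had a lowest, median and highest value of 9.31, 9.43 and 9.46 in poly(I:C) offspring, against 9.01, 9.30 and 9.42 in controls. In 4 poly(I:C) arrays it exceeded every control, with a log2 difference of 0.15 (limma adjusted p = 0.291, 95% interval 0.02 to 0.28). Scn2b, which is linked to the pore by a disulfide bond, was at 0.07 (95% interval -0.03 to 0.18). Scn4b, the β subunit known for its abundance in the striatum and for resurgent sodium current, averaged 9.00 ± 0.28 in poly(I:C) offspring and 8.99 ± 0.36 in controls (SD, n = 6 each). Its log2 difference of 0.01 had a wide 95% interval, -0.34 to 0.35, because its values ran from 8.68 to 9.42 in poly(I:C) offspring and from 8.46 to 9.43 in controls. Of the 34 genes it had the largest standard deviation over the 12 arrays (0.31), and it is described further below with the marker genes.

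The 9 calcium channel pore genes gave 0 genes at an unadjusted p under 0.05, with log2 differences from -0.03 to 0.10. The presynaptic pores were all higher in value. Cacna1b, the N-type channel of transmitter release, had values of 8.08, 8.18 and 8.26 (lowest, median and highest) in poly(I:C) offspring, against 8.03, 8.10 and 8.16 in controls. The groups overlapped, with a log2 difference of 0.08 (95% interval -0.01 to 0.17, unadjusted p = 0.0718). Cacna1e, the R-type pore, was at 0.09 and Cacna1a, the P/Q-type pore, at 0.02. Among L-type pores, which couple activity to gene expression, Cacna1c had 7.67, 7.84 and 7.89 in poly(I:C) offspring, against 7.50, 7.80 and 7.95 in controls, and its difference of 0.07 had a 95% interval of -0.09 to 0.22. Cacna1f, the retinal L-type pore, and Cacna1s, that of skeletal muscle, were both at -0.01 and lay below the median level of tested probes. T-type pores open near the resting potential. Of these, Cacna1i had 7.06, 7.21 and 7.54 in poly(I:C) offspring, against 6.81, 7.24 and 7.42 in controls (log2 difference 0.10, 95% interval -0.12 to 0.31). Cacna1h stood at 0.06 and Cacna1g at -0.03. The 95% intervals differed in width between genes, from -0.08 to 0.07 for Cacna1s to -0.31 to 0.25 for Cacna1g.

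The α2δ and β subunits of calcium channels each included 1 gene with an unadjusted p under 0.05. Cacna2d1 encodes the α2δ subunit that binds gabapentin and carries channels to the presynaptic membrane. On its main probe it had 8.005, 8.36 and 8.38 (lowest, median and highest) in poly(I:C) offspring, against 7.80, 8.09 and 8.28 in controls. All poly(I:C) arrays but array 5 lay above every control, with a log2 difference of 0.21 (limma adjusted p = 0.285, 95% interval 0.03 to 0.40, exact permutation p = 0.0519). Its other probe gave 0.41 (limma adjusted p = 0.148, 95% interval 0.17 to 0.64), with 8.24 ± 0.17 in poly(I:C) offspring and 7.83 ± 0.26 in controls (SD, n = 6 each), and there too 5 of 6 poly(I:C) arrays exceeded all controls. The other α2δ genes were near 0 in value, Cacna2d2 at 0.04 (0.32 with the myelin covariate, limma adjusted p = 0.281), Cacna2d3 at -0.00016 and Cacna2d4 at -0.02. Cacnb4, the β subunit gene mutated in the lethargic mouse, had 9.32, 9.43 and 9.52 in poly(I:C) offspring, against 9.00, 9.24 and 9.47 in controls. Only 2 poly(I:C) arrays were above all controls, and the log2 difference was 0.18 (limma adjusted p = 0.237, 95% interval 0.04 to 0.32). Cacnb1, the β subunit also used in skeletal muscle, was at 0.10 (95% interval -0.03 to 0.23).

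The γ family held both the higher and the lower values. Cacng8, a TARP of the same subclass as stargazin, had 7.77, 7.86 and 8.04 (lowest, median and highest) in poly(I:C) offspring, against 7.65, 7.69 and 7.80 in controls. It had the smallest unadjusted p of the 34 genes (0.00284), and 5 of 6 poly(I:C) arrays lay above every control. The log2 difference was 0.18 (limma adjusted p = 0.153, 95% interval 0.07 to 0.28, exact permutation p = 0.00649). Cacng7, a TARP of the other subclass, had 8.89, 8.93 and 9.11 in poly(I:C) offspring, against 8.58, 8.73 and 9.05 in controls. Its poly(I:C) arrays lay closer together than its controls and only 1 exceeded them all (log2 difference 0.18, limma adjusted p = 0.286, 95% interval 0.02 to 0.34). Cacng6, which neighbours Cacng8 and belongs to the skeletal muscle channel subfamily, was at 0.07 with a level below the median of tested probes.

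Cacng4, a TARP that is also abundant in cells of the oligodendrocyte lineage, differed in the opposite direction. Its lowest, median and highest values were 8.15, 8.27 and 8.63 in poly(I:C) offspring, against 8.44, 8.58 and 8.88 in controls. All poly(I:C) arrays but array 6 lay below every control, with a log2 difference of -0.29 (limma adjusted p = 0.174, 95% interval -0.48 to -0.10, exact permutation p = 0.0195). The values of myelin markers were lower too, as given above, and with their mean as a covariate the Cacng4 difference was -0.37 (unadjusted p = 0.0190, limma). Cacng5, which adjoins Cacng4 on chromosome 11, was at 0.03, and Cacng1, on its other side, was at 0.0020. Stargazin itself, Cacng2, was at -0.07 on its main probe and 0.04 on the other, and Cacng3 was at -0.04. With the cortical, choroid plexus or myelin mean as a covariate Cacng3 was at -0.14, -0.17 and -0.20, and without controls 4 and 6 at -0.11, each with an unadjusted p under 0.05 (limma adjusted p from 0.270 to 0.651). Cacng3 was also the 1 lower gene with cortical, septal and choroid plexus means together, at -0.18 (limma adjusted p = 0.463).

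**Figure D3:**
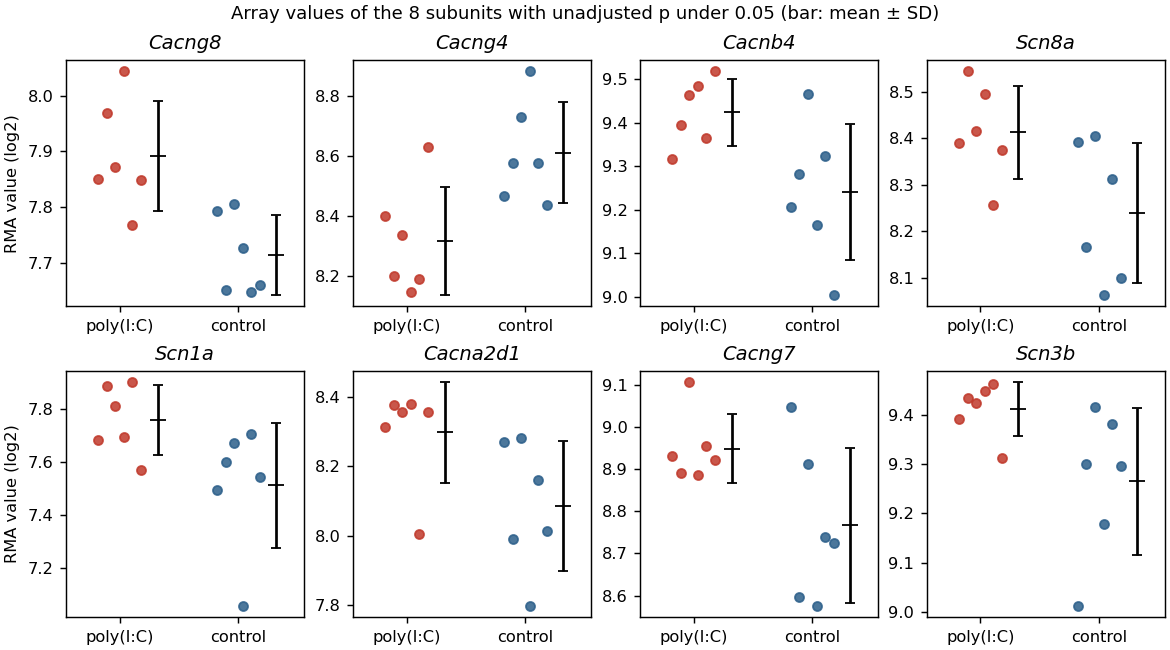
RMA value on the log2 scale (y axis) of each array for the 8 channel subunit genes with an unadjusted p under 0.05, poly(I:C) offspring in red and controls in blue, with the mean ± SD of 6 arrays as a bar. The groups overlap in all 8 panels, by 1 poly(I:C) array in Cacng8, Cacng4 and Cacna2d1.

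Several subunit genes followed the cell type markers from array to array within the groups. Each of the 34 genes was set against the mean of the shared medium spiny neuron markers and against that of the cortical neuron markers, as deviations from the group mean over the 12 arrays. These 68 relations were tested with 100000 permutations within groups, two-sided, and 6 passed at an adjusted p under 0.05 by Pearson's r and 9 by Spearman's rho. The share of all tested probes that follow the same marker means was not computed, so these counts do not set the channel genes apart from other genes. Scn4b followed the medium spiny neuron mean with a Pearson r of 0.98 and a Spearman rho of 0.95 (permutation p = 3e-05 and 6e-05, adjusted p = 0.00204 for both). The r was 0.97 without the 2 arrays farthest from the median, 0.96 within poly(I:C) offspring and 0.99 within controls. Scn4b was highest in poly(I:C) 6 and control 3, at 9.42 and 9.43, where the marker mean was highest in each group, at 9.58 and 9.55. In bulk tissue, fewer cells of a type and less RNA per cell cannot be told apart.

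Cacng4, Cacna1i and Cacna2d3 also followed the medium spiny neuron mean, with r of 0.87, 0.89 and 0.87 and rho of 0.94, 0.86 and 0.86 (permutation adjusted p of r 0.0105, 0.0159 and 0.0180). Without the 2 farthest arrays r was 0.83, 0.77 and 0.80. Scn8a and Cacng8 followed the cortical mean, with r of 0.81 and 0.80 and rho of 0.83 and 0.80 (permutation adjusted p of r 0.0188 for both). For these 2 genes r was 0.79 and 0.75 without the 2 farthest arrays, 0.81 and 0.84 within poly(I:C) offspring and 0.81 and 0.82 within controls. By rho alone, Cacna2d1 and Cacng3 followed the cortical mean (rho 0.81 and 0.83, permutation adjusted p 0.0266 and 0.0222, with r of 0.73 and 0.67 and adjusted p 0.0684 and 0.139). Cacna1c followed the medium spiny neuron mean by rho alone (rho 0.78, permutation adjusted p 0.0450, with r of 0.73 and adjusted p 0.0927). Points within a relation share the array and its normalization, and the medium spiny neuron mean itself differed by -0.01 between groups whereas the cortical mean differed by 0.53. Markers of the direct pathway neurons among them were higher in value in 5 of 5 cases (0 past the adjusted threshold in limma, 2 at an unadjusted p under 0.05), with means of 7.72 to 8.02 in poly(I:C) offspring and 7.35 to 7.90 in controls. Markers of the indirect pathway neurons were higher in value in 1 of 4 cases and lower in 3 (0 at an unadjusted p under 0.05 in limma). Their means were 8.74 to 9.09 in poly(I:C) offspring and 8.64 to 9.01 in controls. The part of either pathway's neurons in the channel gene differences was not tested.

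**Figure D4:**
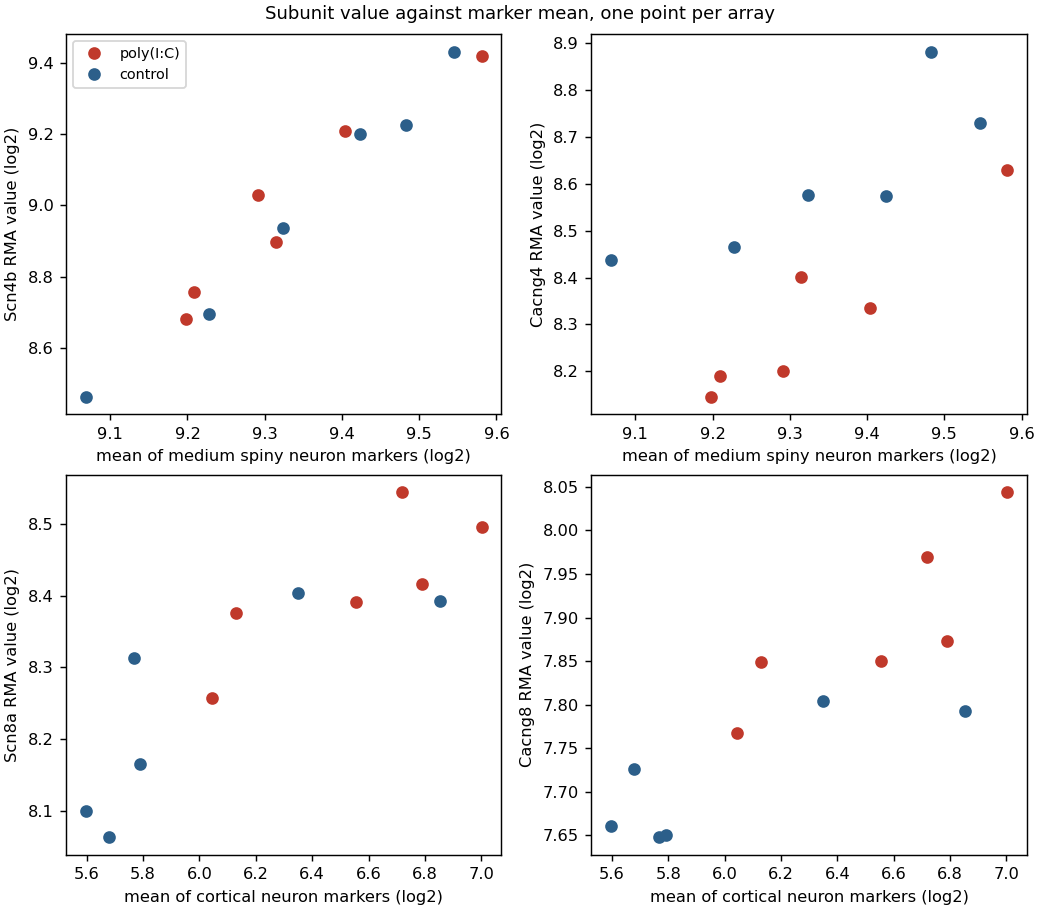
RMA value of 4 channel subunit genes (y axes, log2) against the mean of medium spiny neuron markers or of cortical neuron markers (x axes, log2), with 1 point per array, poly(I:C) offspring in red and controls in blue. Scn4b points of both groups lie along a common band, whereas most poly(I:C) points of Cacng4 lie below the control points at a like marker mean.

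Group differences of most of the 7 higher genes were smaller with the mean of cortical, choroid plexus or myelin markers in the fit. Scn3b and Scn1a were exceptions in some settings. With the cortical mean as a covariate, the log2 difference was 0.05 for Scn8a, 0.06 for Cacna2d1, 0.07 for Cacng7, 0.09 for Cacng8, 0.14 for Cacnb4, 0.21 for Scn1a and 0.19 for Scn3b, the last larger than without it. Scn3b alone of these genes kept an unadjusted p under 0.05 there (limma adjusted p = 0.399), and 10.6% of all probes did. With the choroid plexus and ependymal mean, Cacng8 alone did, at 0.14, against 6.29% of all probes, and Scn8a was at 0.04 and Cacna2d1 at 0.07. With the myelin mean, Scn1a at 0.33 and Scn3b at 0.24 were larger and kept it, whereas Cacng7 was at -0.0078, Scn8a at 0.04 and Cacng8 at 0.09. Without controls 4 and 6, which had the highest choroid plexus markers, Cacng8 at 0.17 was again the only one of the 7, and Cacna2d1 was at 0.12 and Scn8a at 0.09. Cacng4 kept an unadjusted p under 0.05 with the cortical mean at -0.23, with the choroid plexus mean at -0.28 and without controls 4 and 6 at -0.27, and was at -0.18 with cortical, septal and choroid plexus means together (unadjusted p = 0.0655, limma). With the medium spiny neuron mean as a covariate, a setting added after the data were seen, Cacng4 was at -0.28 and passed over all probes (limma adjusted p = 0.0491). Over the other alternative settings, those that leave out an array included, its limma adjusted p ran from 0.0652 to 0.739. The part of tissue composition in these differences was not tested, and such fits cannot tell it apart from a group effect on the marker genes.

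**Figure D5:**
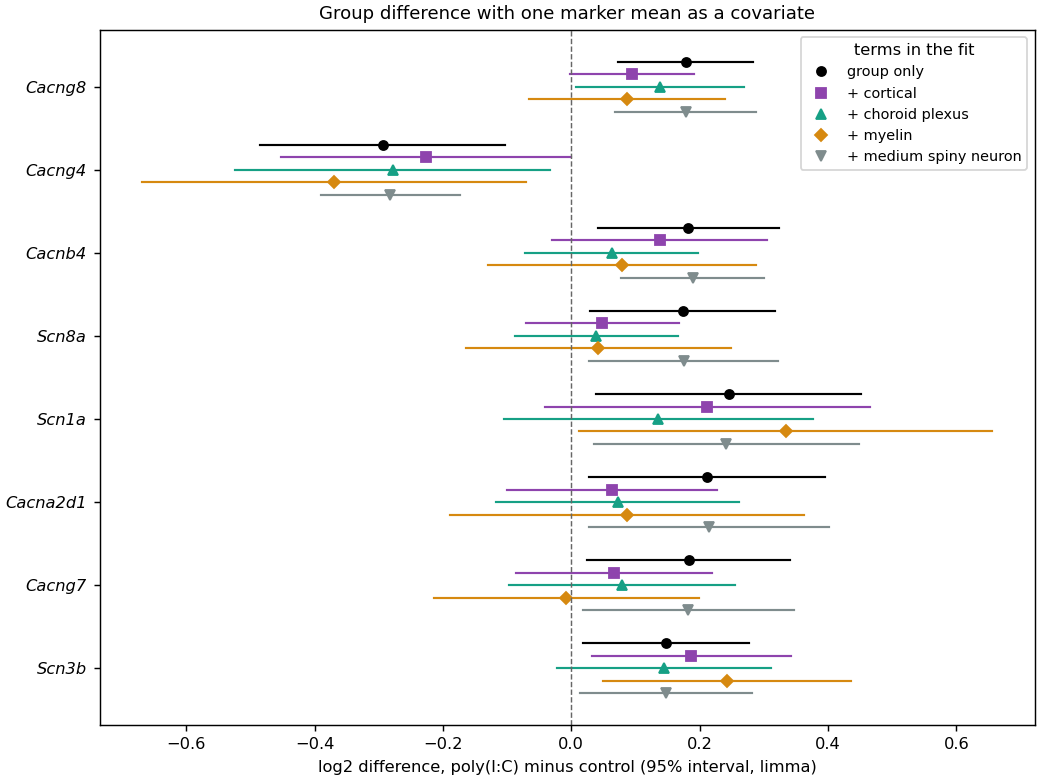
Log2 difference (x axis, poly(I:C) minus control, with the 95% interval of the limma fit) of the 8 genes with group as the only term and with 1 marker mean added as a covariate. Points of Scn8a, Cacna2d1 and Cacng7 lie nearer to 0 with the cortical, choroid plexus or myelin mean, and the Cacng4 points stay below 0.

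Leaving out single arrays sorted the 8 genes into those that held their unadjusted p and those that did not. Cacng8, Cacng4 and Cacnb4 stayed under an unadjusted p of 0.05 in 12 of 12 such fits, with p-values up to 0.00794, 0.0145 and 0.0329. They were also the genes with the lowest unadjusted p of the 8 in the main limma fit (0.00284, 0.00530 and 0.0145). The sorting therefore largely follows the order of the main p-values. Scn1a stayed there in 10 fits and lost it without poly(I:C) 2 or 5. Scn8a stayed there in 9, losing it without poly(I:C) 2 or controls 4 or 6, and Cacng7 also in 9, losing it without poly(I:C) 3 or controls 2 or 4. Scn3b stayed there in 8, losing it without poly(I:C) 4 or 5 or controls 1 or 4, and Cacna2d1 in 6, losing it without poly(I:C) 2, 3 or 4 or controls 2, 4 or 6. The count of 7 higher genes was 3 without control 4 and 4 without poly(I:C) 2, where 6.08% and 6.21% of all probes were higher at that p. The Scn3b difference was 0.0969 without control 1. Differences of all 8 kept their sign in these fits.

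Partner genes of the channels were examined from a list of 34 genes, of which 32 were measured. The list held intracellular sodium channel modifiers, initial segment anchors, the sodium leak channel, calcium release channels, calcium channel inhibitors, release site scaffolds, further AMPA receptor auxiliary proteins and calmodulins. Of the 32, 27 were higher and 5 lower in value, where 50.9% of all tested probes had a difference above 0. In limma 0 passed over all probes, and 6 had an unadjusted p under 0.05 (5 higher and 1 lower). That p was reached by 14.4% of all tested probes and by 19.5% of all genes above the median level. All measured partners but Gem, Rrad, Stac and Stac3 lay above that median. The median log2 difference over the 32 was 0.06, against 0.0016 over all tested probes and 0.0248 over all genes above the median level. The share of those genes with a difference above 0 was not computed, so the count of 27 has no comparison at a like level. Cnih3, a cornichon protein that accompanies AMPA receptors, averaged 7.37 ± 0.39 in poly(I:C) offspring and 6.83 ± 0.26 in controls (SD, n = 6 each), a log2 difference of 0.54 (limma adjusted p = 0.172, 95% interval 0.19 to 0.89). Shisa9, a further AMPA receptor partner, was at 0.15, and Rimbp2, which ties calcium channels to release sites, at 0.18. Ryr2, a calcium release channel of the endoplasmic reticulum, was at 0.19 and Stac2, a calcium channel adaptor, at 0.23. Calm2, a calmodulin gene whose product binds both channel families, was at -0.14. Their adjusted p-values ran from 0.172 to 0.345. Ank3, the anchor of sodium channels at the initial segment, was at 0.02, and the sodium channel modifiers Fgf11, Fgf12, Fgf13 and Fgf14 were at 0.20, 0.06, 0.0023 and 0.12.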

How the data were processed

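Affymetrix Mouse Gene 1.1 ST arrays (250 ng of RNA each) measured 6 poly(I:C) and 6 control offspring, grouped by sample titles. The authors deposited 35556 log2 values per array (1.86 to 12.29), made with RMA and Partek 6.6 per the submitters' processing notes. RMA normalizes the arrays to one another, which hides any shift common to most genes. The genome build is not given in the sources used here. The platform annotation gave 21218 rows 1 gene symbol, 1881 several and 12457 none, and rows with 1 were tested. All 34 members matched the RefSeq table by gene identifier, with 0 symbols changed.

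Rows were fitted with limma 3.58.1 in R 4.3.3 (lmFit, eBayes, group only, two-sided), with 10 residual and 3.94 prior degrees of freedom and Benjamini-Hochberg adjustment over all 21218 rows. The script was tested on simulated data. Precision is limited by the number of arrays. Members, lists and tests were chosen with earlier results of these data known. Every member is named, and lowest, median and highest values are given where the unadjusted p was under 0.05, or otherwise for the smallest p of each role. Scn2a, Scn4b, Scn11a and the other probe of Cacna2d1 were given more fully after their values were seen. Alternatives changed the normalization, filter, rows tested, variance model, array weights, replicate block, covariates, probe choice and arrays.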

Additional observations from a re-analysis of the deposited data

Results flagged for a closer look

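In 9 of 68 groups of 6 values (34 genes in 2 groups), 1 array stood apart from the other 5 by a gap above Dixon's 95% critical value, where chance gives about 1 in 20. Among the genes with an unadjusted p under 0.05, Cacna2d1 was at 8.005 in poly(I:C) 5, against 8.31 to 8.38 in the other poly(I:C) arrays. Cacng7 was at 9.11 in poly(I:C) 3, against 8.89 to 8.96 in the others. Scn1a was at 7.06 in control 4, against 7.49 to 7.70 in the other controls.

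The remaining ones concerned genes with small group differences. Cacna1g, a T-type calcium pore, was at 5.89 in poly(I:C) 6 (6.42 to 6.73 in the other poly(I:C) arrays) and at 6.88 in control 6 (6.29 to 6.51 in the other controls). Scn9a was at 5.30 in poly(I:C) 5 (4.97 to 5.08). Cacng3 was at 8.97 in control 6 (9.24 to 9.37), Cacng5 at 6.46 in control 5 (6.88 to 7.12) and Cacna1f at 3.83 in control 1 (3.62 to 3.68).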

How the results depend on the processing

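Of the 34 channel genes 0 passed over all probes in every setting run, except that Cacng4 passed with the medium spiny neuron covariate (1 gene). The count of higher genes at an unadjusted p under 0.05, 7 in the main setting, was 1 with the cortical covariate, with the choroid plexus covariate, with cortical, septal and choroid plexus covariates and without controls 4 and 6, where 5.24%, 3.12%, 3.47% and 4.34% of all probes were higher at that p, against 7.83% in the main setting. It was 3 with the myelin covariate (8.26% of all probes) and with medium spiny neuron and cortical covariates (5.93%), in both cases 2 of the 7 and Cacna2d2. Lower genes, 1 in the main setting, numbered 3 with the myelin covariate and 2 with the cortical, choroid plexus, or medium spiny neuron and cortical covariates, with array weights and without controls 4 and 6. The share of all probes lower at that p, 6.57% in the main setting, was 6.32% with the myelin covariate, 5.34%, 3.17% and 6% with the next 3, 7.38% with array weights and 4% without those controls. With 1 array left out there were 3 to 9 higher and 1 to 2 lower genes, and 0 to 2 whose group ranges did not overlap (2 without poly(I:C) 5 or without poly(I:C) 6). Lower genes numbered 2 without control 2, control 6 or poly(I:C) 6, where Cacng2, Cacng3 and Scn11a, in that order, joined Cacng4. With array weights Scn11a joined it too. The labels name no link between arrays of the same replicate number beyond the number itself. Correlations of their deviations ran from -0.201 to 0.269, and 1 of 6 correlated best with its own number. Whether such arrays shared a litter or batch was not tested. With the replicate block the 8 genes were those of the main setting, 7 higher and 1 lower. After quantile normalization 7 were higher too, where 7.63% of all probes were, but with Cacng6 in place of Cacng7. Cacng7 was then at 0.16 (unadjusted p = 0.0591, limma). The count over all probes, 13 in the main setting, was 38 after quantile normalization, 20 among probes above the median level, 140 with array weights, 43 with the medium spiny neuron covariate, 1 with trend and robust eBayes, and 0 to 84 with 1 array left out. It was 0 with the replicate block, with all rows tested, with each of the other covariates and without controls 4 and 6. At an unadjusted p under 0.05 there were 3056 probes in the main setting, 4658 of all rows tested, 1886 of those above the median level, 1334 with the choroid plexus covariate, 1777 with the 3 covariates and 1768 without controls 4 and 6, and 2801 with the replicate block.

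Log2 differences changed sign in 19 genes, 18 of them with a main value of at most 0.14 in size and the other one Cacng7, and 0 of these turned values had an unadjusted p under 0.05. Array medians subtracted gave Cacna1f 0.0067, Cacna1s 0.0065 and Cacna2d3 0.013. Array weights gave Cacna1f 0.0030, Cacna1g 0.047, Cacng1 -0.0022, Scn10a 0.0017 and Scn4b -0.082. Quantile normalization gave Cacna1a -0.0018, Cacna1f 0.013, Cacna1s 0.0053 and Scn4b -0.0093, and the mean of all probes gave Scn2a 0.042. The choroid plexus covariate gave Cacna1a -0.042, Cacna1c -0.047, Cacna1g 0.16, Cacna1h -0.0045, Cacna1i -0.036, Cacna2d4 0.046, Cacng1 -0.038, Scn4b -0.15, Scn7a 0.0076 and Scn9a 0.035. The cortical covariate gave Cacna1a -0.032 and Scn9a 0.092, and adding septal and choroid plexus means gave Cacna1a -0.031, Cacna1c -0.0048, Cacna1g 0.0018, Cacna2d4 0.051, Cacng1 -0.0062, Scn10a 0.013 and Scn9a 0.062. The medium spiny neuron covariate gave Cacna2d3 0.011, and with the cortical mean Cacna1a -0.034, Cacna1c -0.0032, Cacng1 -0.00011 and Scn9a 0.095. The myelin covariate gave Cacna1a -0.12, Cacna1c -0.14, Cacna1e -0.023, Cacna1g 0.19, Cacna1h -0.13, Cacna1i -0.17, Cacna2d4 0.020, Cacng1 -0.064, Cacng7 -0.0078, Scn4b -0.17, Scn7a 0.19 and Scn9a 0.16. Leaving out controls 4 and 6 gave Cacna1a -0.0047, Cacna1g 0.090, Cacna2d4 0.028, Cacng1 -0.012 and Scn4b -0.067. With 1 array left out, the ranges that crossed 0 were -0.020 to 0.023 for Cacna1f, -0.085 to 0.083 for Cacna1g, -0.023 to 0.0094 for Cacna1s, -0.042 to 0.092 for Cacna2d2, -0.066 to 0.040 for Cacna2d3, -0.038 to 0.0093 for Cacna2d4, -0.020 to 0.019 for Cacng1, -0.056 to 0.074 for Cacng5, -0.039 to 0.0085 for Scn10a, -0.040 to 0.0018 for Scn2a and -0.10 to 0.095 for Scn4b. The cause of each change was not tested. The 2 settings with the medium spiny neuron mean were chosen after the data were seen.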
